A study of Mus musculus with 21 samples.

Results

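Neat1 and Malat1 are neighbouring long non-coding RNA (lncRNA) genes on mouse chromosome 19, and Sfpq, Nono, Pspc1, Tardbp and Hnrnpk encode proteins of paraspeckles, the nuclear bodies that are built on Neat1 RNA. The microarray probes taken here were those whose gene name on the array was one of these 7 genes, together with the probes placed inside the Neat1 locus. This gave 33 of the 55681 probes on the array, namely 21 for Neat1, 1 for Malat1, 2 for Sfpq, 2 for Nono, 1 for Pspc1, 3 for Tardbp and 3 for Hnrnpk. Of the 21 Neat1 probes, 1 carried the gene symbol and the others were taken by position. The genes and the split of Neat1 into regions were selected on the processed signal of these probes in type 1 against type 2B myofibers, and differences are given throughout as type 2B minus type 1. The values of these probes between the types are therefore a description, without a test.

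Expression was measured in 21 single myofibers of CD1 mice at 3 months of age, of which 11 were type 1 and were taken from soleus and 10 were type 2B and were taken from EDL (extensor digitorum longus). Soleus is a slow oxidative hindlimb muscle and EDL a fast glycolytic one. Each myofiber was freed with collagenase, typed as pure from a clipped piece by its myosin heavy chain protein, and the RNA of the remainder was amplified and hybridised on 1 one-colour array. The mice were not treated, the labels give no mutation or transgene, and every type 1 myofiber came from soleus and every type 2B myofiber from EDL, so myofiber type and muscle cannot be told apart. The labels call the mice male and the study's methods call them female, and the data were not used to settle it. Of the Y-linked genes, Ddx3y gave a signal well above background in all 21 myofibers, Eif2s3y in 10 type 1 and 7 type 2B, Kdm5d in 7 and 7, and the Uty probes in 9 and 8 and in 2 and 1. Of the Xist probes, 1 did so in 4 type 1 and 5 type 2B myofibers and the other in 0. The myofibers came from 9 mice, 6 for each type, and mice 3, 4 and 9 gave both types. Names such as S7.2 and E9.5 give the muscle, the myofiber and, after the point, the mouse.

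Myh7 and Myh4, the myosin heavy chain genes that mark the types, differed between the types in the direction of the labels. On the log2 scale Myh7, the slow isoform, differed by -8.07 ± 0.62 (SE) between type 2B and type 1, and Myh4, the type 2B isoform, by 11.63 ± 0.63 (SE; limma, Bonferroni-adjusted p = 2.19e-07 and 1.77e-10). Myofiber S6.4 stood apart, with Myh7 at 9.22 where the other 10 type 1 myofibers lay between 15.53 and 16.28. Without it the difference for the Neat1 long-isoform region, type 2B minus type 1, was -1.25, with 0.07 for the common region, -0.65 for the start, 0.81 for the Malat1 3′ end and -0.20 for the body. Between 41.2% and 79.8% of spots were well above background in the type 1 arrays and between 38.7% and 74.6% in the type 2B arrays. Over the 46928 probes tested the median difference between types was 0.03 on the log2 scale, with quartiles of -0.32 and 0.35.

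Neat1 is transcribed into a short and a long RNA that begin at the same place. The short isoform ends early at a polyadenylation site, and the long isoform (Neat1_2) reads through that site and holds the sequence on which paraspeckles assemble. Malat1 RNA lies in nuclear speckles, where splicing factors gather, and its 3′ end is made by RNase P cleavage of a tRNA-like stretch instead of by polyadenylation. Both RNAs lie mainly in the nucleus, and Neat1 is known to respond to stress such as hypoxia. The study reports Neat1 as nuclear in muscle sections and as both nuclear and cytoplasmic in elongated C2C12 myoblasts.

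Every probe was 60 bases long, and the array placed it on the mm9 build. The array annotates Neat1 (as NEAT1) at chr19:5842306-5845476 on the reverse strand, a transcript of 3171 bases that corresponds to the short isoform, and Malat1 (as NEAT2) at chr19:5795689-5802671 on the reverse strand, 6983 bases. Distances below are counted from the annotated start, which is the higher coordinate. Of the 21 Neat1 probes, 3 lay between 10560 and 10874 bases downstream of the start, beyond the annotated transcript and inside the long isoform only (chr19:5834543-5834916). A further 6 lay between 2631 and 2883 bases from the start, near the end of the short isoform, and read both isoforms (chr19:5842534-5842845). The remaining 12 were forward-strand probes, 11 near the start (chr19:5843984-5845497) and 1 just beyond the 6 (chr19:5842428-5842487).

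The sequences below are those of the probes that separate the long isoform from the common part. Capitals mark TGTGTG, a UG-rich element of the kind that Tardbp binds, and AATAAA, the letters of the polyadenylation signal. A match is one of letters only, and the use of any site was not tested. Both motifs were searched on both strands, so capitals reading CACACA or TTTATT are matches on the other strand.
Neat1 long isoform, A_30_P01019037: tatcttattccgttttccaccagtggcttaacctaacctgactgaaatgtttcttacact
Neat1 long isoform, A_30_P01025818: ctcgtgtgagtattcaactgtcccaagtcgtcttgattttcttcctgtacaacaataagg
Neat1 long isoform, A_30_P01029006: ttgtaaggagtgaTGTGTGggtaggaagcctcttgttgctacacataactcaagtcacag
Neat1 common, A_30_P01021631: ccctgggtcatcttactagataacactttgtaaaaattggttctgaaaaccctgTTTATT
Neat1 common, A_51_P234692: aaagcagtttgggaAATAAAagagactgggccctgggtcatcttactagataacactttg
Neat1 common, A_30_P01029720: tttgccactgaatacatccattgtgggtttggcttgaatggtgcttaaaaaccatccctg
Neat1 start, forward strand, A_30_P01029504: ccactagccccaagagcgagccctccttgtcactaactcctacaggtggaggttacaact
Neat1 forward strand near the common part, A_30_P01020604: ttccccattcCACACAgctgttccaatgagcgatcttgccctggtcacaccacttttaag
The TGTGTG letters were in 1 of the 3 long-isoform probes, in 0 of the 6 common probes and in 5.69% of all probes on the array. AATAAA was in 0 of the 3 long-isoform probes, in 3 of the 6 common probes and in 13.5% of all probes. Of those 3 common probes, A_51_P234692 and A_30_P01020135 share 30 bases that hold the motif. In A_30_P01021631 the match is on the other strand.

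Of the 14 probes in the Malat1 locus, 1 carries the gene name and 13 are named on the array only by position or as NEAT2. The Malat1 probes fell into 2 groups, and this split was made after the values were seen. The first group has 5 probes between 6779 and 6899 bases from the start, at the 3′ end (chr19:5795713-5795892), and the second has 9 probes between 345 and 5378 bases from the start, in the body of the transcript (chr19:5797234-5802326), 3 of them on the forward strand. Both are shown by a probe each.
Malat1 3′ end, A_55_P2021187: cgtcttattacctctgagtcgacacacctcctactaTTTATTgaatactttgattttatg
Malat1 body, A_30_P01031754: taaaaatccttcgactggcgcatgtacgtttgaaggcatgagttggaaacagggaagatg
The sequence of A_55_P2021187 is on the array under a second name as well. The pair gave a Pearson correlation of 0.987 over the 21 myofibers and a median absolute difference of 0.0871 on the log2 scale, a measure of the scatter between spots of an array.

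The part of Neat1 that only the long isoform holds was lower in type 2B than in type 1 myofibers, while the part shared by both isoforms differed by less than the spread between mice. The mean over the probes of a region was used for each myofiber, as log2 of the normalized signal. In type 1 myofibers the long-isoform region was 10.78 in S6.4, 10.77 in S11.3, 12.38 in S7.2, 13.04 in S16.3, 11.10 in S14.2, 10.81 in S7.3, 12.14 in S15.2, 11.21 in S10.8, 10.06 in S9.4, 12.17 in S5.9 and 12.30 in S10.10. In type 2B myofibers it was 11.57 in E13.3, 11.11 in E10.4, 11.57 in E11.9, 10.06 in E8.3, 9.52 in E9.5, 9.71 in E9.6, 10.3998 in E7.7, 8.91 in E14.3, 9.42 in E12.5 and 11.34 in E15.3. The types overlapped, although 5 type 2B myofibers lay below every type 1 myofiber and 5 type 1 myofibers lay above every type 2B myofiber.

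The mean over mice of the long-isoform region was 11.59 ± 0.70 (SD, n = 6 mice) in type 1 against 10.45 ± 0.80 (SD, n = 6 mice) in type 2B. The difference between the types was -1.17 ± 0.41 (SE), that is 2.26-fold higher in type 1. Here and below a difference comes from a fit over myofibers, in which a mouse with more myofibers counts for more, so it need not equal the difference of the printed means over mice. The 3 probes of the region gave differences of -1.21, -1.21 and -1.11, so no single probe carried the value. The mouse means of the types overlapped, spanning 10.42 to 12.30 for type 1 and 9.47 to 11.57 for type 2B.

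The common region of Neat1 ran from 10.62 to 13.23 in type 1 myofibers (median 12.14), and from 10.99 to 14.199 in type 2B with a median of 12.19. Its mean over mice was 11.79 ± 0.85 (SD, n = 6 mice) in type 1 against 12.18 ± 1.05 (SD, n = 6 mice) in type 2B. The difference was 0.01 ± 0.38 (SE) in the fit over myofibers, where its 6 probes lay between -0.14 and 0.08, and 0.37 ± 0.56 (SE) with means per mouse. Both were smaller than the spread between mice. The highest value of all, 14.199, was that of the type 2B myofiber E10.4, and the next type 2B myofiber was at 12.68.

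**Figure D1:**
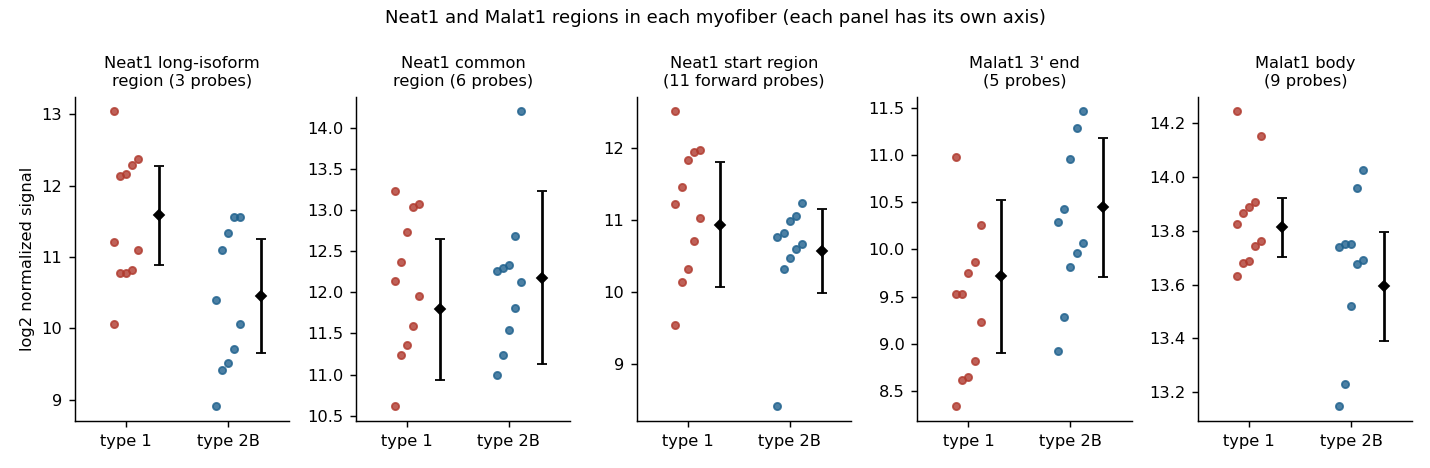
Log2 normalized signal of 3 Neat1 regions and 2 Malat1 regions, 1 point for each of 11 type 1 (red) and 10 type 2B (blue) myofibers, with the mean ± SD over 6 mice beside each type (black). The long-isoform region sits lower in type 2B (10.45 against 11.59), the common region of the types overlaps, and the Malat1 3′ end sits higher in type 2B (10.45 against 9.71).

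The long-isoform value minus the common value, the nearest measure on this array of how much of Neat1 extends past the short end, was -0.21 ± 1.21 (SD, n = 6 mice) in type 1 against -1.72 ± 1.20 (SD, n = 6 mice) in type 2B. Probes differ in how brightly they bind, so the sign of such a value within a type has no meaning and only the difference between types was read. That difference was -1.18 ± 0.62 (SE). It was lowest in E14.3 (-3.77) and E10.4 (-3.09) and highest in S16.3 (1.45), and the types overlapped, with 4 type 2B myofibers below every type 1 myofiber.

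The long-isoform and common parts of Neat1 did not follow each other from myofiber to myofiber. Probes of the same region did, with Pearson correlations over the 21 myofibers of 0.88 to 0.95 within the long-isoform region and of 0.84 to 0.98 within the common region. Between the regions the 18 probe pairs gave -0.29 to 0.00, and the region means gave a Pearson r of -0.17 and a Spearman rho of -0.22. Within type 1 the Pearson r was -0.24, and within type 2B it was -0.14. These are descriptions, as myofibers share mice and slides, and no p is given. Myofiber E10.4, for instance, had the highest common value and a long-isoform value of 11.11, whereas S16.3 had the highest long-isoform value and a common value of 11.60.

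**Figure D2:**
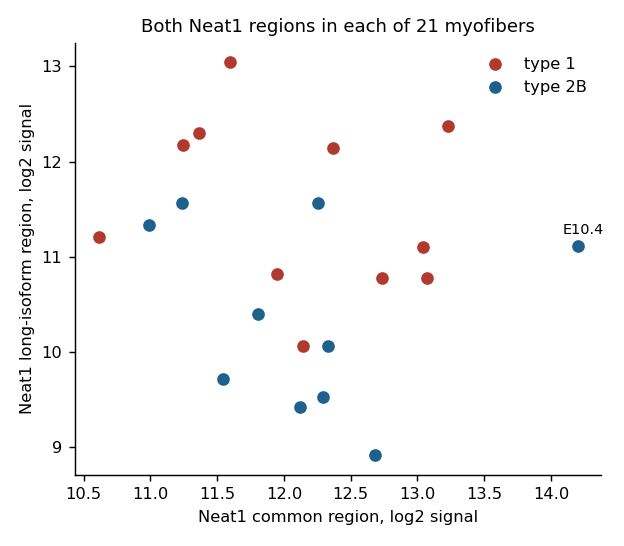
Log2 normalized signal of the Neat1 common region (horizontal) and long-isoform region (vertical) in each of the 21 myofibers, type 1 in red and type 2B in blue. The points show no common trend (Pearson r = -0.17), and E10.4 stands at the right edge with a common value of 14.199.

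The 11 forward-strand probes near the Neat1 start were all lower in type 2B, with differences from -1.14 to -0.18. Their mean was 10.94 ± 0.87 (SD, n = 6 mice) in type 1 against 10.58 ± 0.58 (SD, n = 6 mice) in type 2B. The difference was -0.63 ± 0.38 (SE) in the fit over myofibers and -0.35 ± 0.42 (SE) with means per mouse. Values in type 1 spread from 9.54 to 12.51 with a median of 11.23, and those in type 2B from 8.41 to 11.24 with a median of 10.72. The low end in type 2B was E12.5 alone (8.41), with the next at 10.32, and without it the difference was -0.39. The probes neighbour one another and in part overlap, so they do not count as separate evidence. Their median correlation within the group was 0.70, against 0.10 with probes of the common region. The means of the start and common regions gave a Pearson r of 0.28 and a Spearman rho of 0.39. Within type 1 that r was 0.60, and within type 2B it was -0.05.

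The strand read by these probes could not be told from the signal. The whole-transcriptome amplification and the labelling of its product used here do not keep the strand of the RNA, and a pair of probes on opposite strands of the same 60 bases in Frmd8, the neighbouring gene, gave a Pearson correlation of 0.948 and a Spearman correlation of 0.875 over 21 myofibers. The forward probes may therefore read Neat1 itself, an antisense RNA or both. The single forward probe beside the common region followed the common probes, with correlations of 0.76 to 0.84, and differed by -0.26 ± 0.28 (SE) between types.

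**Figure D3:**
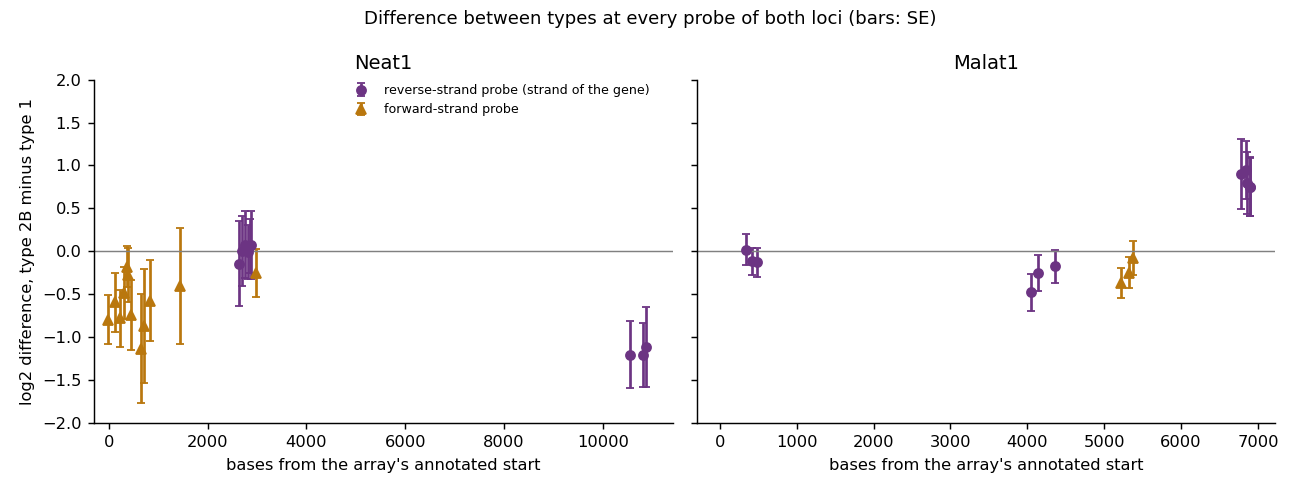
Log2 difference between type 2B and type 1 (vertical, bars are SE of the fit) at each of the 21 Neat1 and 14 Malat1 probes, by distance in bases from the annotated start. Neat1 is near 0 around 2631 to 2883 bases and at -1.21 to -1.11 beyond 10560 bases, and Malat1 is above 0 at its last 5 probes and near or below 0 at the other 9.

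The nearest probes outside the Neat1 and Malat1 loci were dim. A forward probe at chr19:5845498-5845557, upstream of the annotated start and touching the last start probe, gave a signal well above background in 14 of 21 myofibers and differed by 0.19 ± 0.37 (SE). A reverse-strand probe at chr19:5771551-5771610, beyond Malat1, was well above background in 1 of 21 myofibers.

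Malat1 differed between its 3′ end and its body. The 3′ end was higher in type 2B, at 9.71 ± 0.81 (SD, n = 6 mice) in type 1 against 10.45 ± 0.74 (SD, n = 6 mice) in type 2B, a difference of 0.83 ± 0.36 (SE) or 1.78-fold. The probe with the gene name, A_55_P2021187, ran from 7.48 to 10.28 in type 1 with a median of 8.90, and from 8.08 to 10.68 in type 2B with a median of 9.70, and its difference was 0.75 ± 0.35 (SE). The types overlapped at the 3′ end, where S10.10 (10.98) was above 8 of the 10 type 2B myofibers and E15.3 (8.92) was the lowest type 2B value. All 5 probes there were positive, from 0.75 to 0.95, and as neighbours that share up to 60 bases they repeat 1 another.

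The Malat1 body had the steadiest values of all the regions, 13.63 to 14.24 in type 1 with a median of 13.82, and 13.15 to 14.02 in type 2B with a median of 13.71. Its mean was 13.81 ± 0.11 (SD, n = 6 mice) in type 1 against 13.59 ± 0.20 (SD, n = 6 mice) in type 2B, a difference of -0.20 ± 0.10 (SE), with 8 of the 9 probes negative. Scaling each array to its 75th percentile in place of quantile normalization moved this difference to 0.00. The 3′ end minus the body differed by 1.03 ± 0.39 (SE) between types, by 0.86 under the 75th percentile scaling and by 0.66 ± 0.42 (SE) with slide as a fixed block. Probes of the 3′ end correlated at 0.91 to 0.99 with one another and at a median of -0.26 with those of the body.

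Neat1 and Malat1 were set against each other over the 21 myofibers. The long-isoform region had a Pearson r of 0.48 with the Malat1 body and of -0.26 with the Malat1 3′ end, and the common region had 0.13 and -0.23. The first of these was 0.56 within type 1 and 0.18 within type 2B. The highest in size was -0.53, between the Neat1 start probes and the Malat1 3′ end.

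Mice and slides that held both types did not all give the same sign. Within mouse 3, with 3 type 1 and 4 type 2B myofibers, the long-isoform region differed by -1.08, and within mouse 9, with 1 of each, by -0.60. Within mouse 4, with 2 type 1 and 1 type 2B myofibers, it differed by 0.68, the reverse direction. Slide 1 with 4 myofibers of each type gave -1.44 and slide 3 with 2 of each gave -1.41, whereas slide 2 with 2 of each gave 0.93. The remaining 3 slides held a single type each. Scans 1 and 2 were those of slides 1 and 2, and within scan 3, with 2 type 1 and 4 type 2B myofibers, the region differed by -1.52 and the Malat1 3′ end by 0.03. With mouse as a fixed block the difference was -0.59 ± 0.58 (SE), and with slide as a fixed block it was -0.84 ± 0.52 (SE).

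The long-isoform minus common difference was negative within mice 3, 4 and 9, at -0.93, -1.07 and -0.60, and within slides 1 and 3, at -1.74 and -1.03, and it was 0.56 within slide 2. The Malat1 3′ end was positive within the 3 mice, at 0.87, 0.92 and 0.68, and within slides 1 and 2, at 1.41 and 0.31, but was -0.69 within slide 3.

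**Figure D4:**
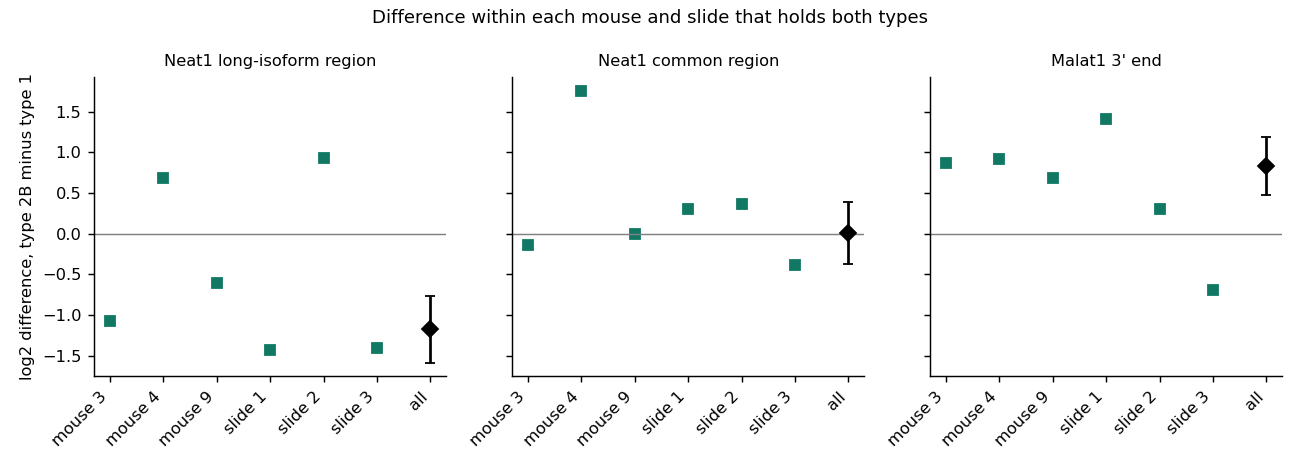
Log2 difference, type 2B minus type 1, within each mouse and slide that held both types (green squares) and over all 21 myofibers (black, with SE), for the Neat1 long-isoform region, the Neat1 common region and the Malat1 3′ end. The long-isoform region is below 0 in 4 of the 6 and above 0 in mouse 4 and slide 2, and the Malat1 3′ end is above 0 in 5 of the 6.

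The paraspeckle proteins Sfpq, Nono and Pspc1 form one family (DBHS proteins) that binds Neat1 and builds the core of the body. Sfpq and Nono are needed for paraspeckles to form. Nono was read by a pair of probes that share 58 bases, both with a difference of -0.21 (SE 0.22 and 0.20). Their means over mice lay further apart. These were 10.45 ± 0.31 and 10.54 ± 0.30 in type 1 against 10.00 ± 0.34 and 10.11 ± 0.31 in type 2B (SD, n = 6 mice). Over the alternatives the differences ranged from -0.45 to -0.13 and from -0.44 to -0.13. The Nono probe A_55_P1957927 ran from 9.48 to 10.89 in type 1 with a median of 10.46, and from 9.69 to 10.69 in type 2B with a median of 10.26. The ranges overlapped, with 5 type 1 myofibers above every type 2B myofiber. Sfpq probe A_55_P2128451 differed by -0.10 ± 0.32 (SE), with 6.61 to 8.68 in type 1 and 6.04 to 8.53 in type 2B. The other Sfpq probe exceeded background well in 3 type 1 and 4 type 2B myofibers and that of Pspc1 in 2 type 1 and 0 type 2B, so their differences of 0.29 ± 0.46 (SE) and -0.08 ± 0.41 (SE) rest on dim spots.

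Tardbp (TDP-43) binds UG-rich RNA, Neat1 among its targets, and Hnrnpk favours the long isoform by opposing the cleavage factor at the short end. The brightest Tardbp probe, A_55_P1980180, was between 9.71 and 11.02 in type 1 with a median of 10.08, and between 9.43 and 10.57 in type 2B with a median of 10.099, a difference of -0.20 ± 0.21 (SE). Probe A_55_P2005135 differed by -0.89 ± 0.47 (SE) and A_65_P18570 by -0.30 ± 0.69 (SE), the last clearing background well in only 8 type 1 and 6 type 2B myofibers. The 3 Tardbp probes were all negative, though the dimmest changed sign under other settings.

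All 3 Hnrnpk probes were lower in type 2B, with differences of -0.54 to -0.48 (SE 0.24 to 0.26). Over the alternatives these ranged from -0.73 to -0.26 for A_65_P08022 (without mouse 2 the smallest), from -0.79 (without mouse 4) to -0.23 (mouse as a fixed block) for A_55_P2107854, and from -0.67 to -0.30 (slide as a fixed block) for A_55_P2107855. Probe A_55_P2107855 ran from 10.58 to 11.69 in type 1 with a median of 10.92, and from 9.002 to 11.46 in type 2B with a median of 10.64, and 5 type 2B myofibers lay below every type 1 myofiber. Probe A_55_P2107854 ran from 9.87 to 11.12 in type 1 (median 10.39), while its type 2B values went from 9.30 to 11.53 (median 9.90), where E10.4 alone was above 10.12. Over the 21 myofibers the Hnrnpk probes had Pearson correlations of 0.19 to 0.42 with the long-isoform region and of 0.15 to 0.43 with the common region. Those with the long-isoform region did not keep 1 sign within the types, at -0.09 to 0.24 within type 1 and -0.22 to 0.47 within type 2B. Those with the common region were -0.01 to 0.50 and 0.06 to 0.62. The probes of Sfpq, Nono, Pspc1 and Tardbp gave -0.28 to 0.31 with the long-isoform region over the 21 myofibers. With the common region they gave -0.44 to 0.23. Within type 1 these ranges were -0.80 to 0.55 for the long-isoform region and -0.73 to 0.47 for the common region. Within type 2B they were -0.74 to 0.33 and -0.65 to 0.35.

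**Figure D5:**
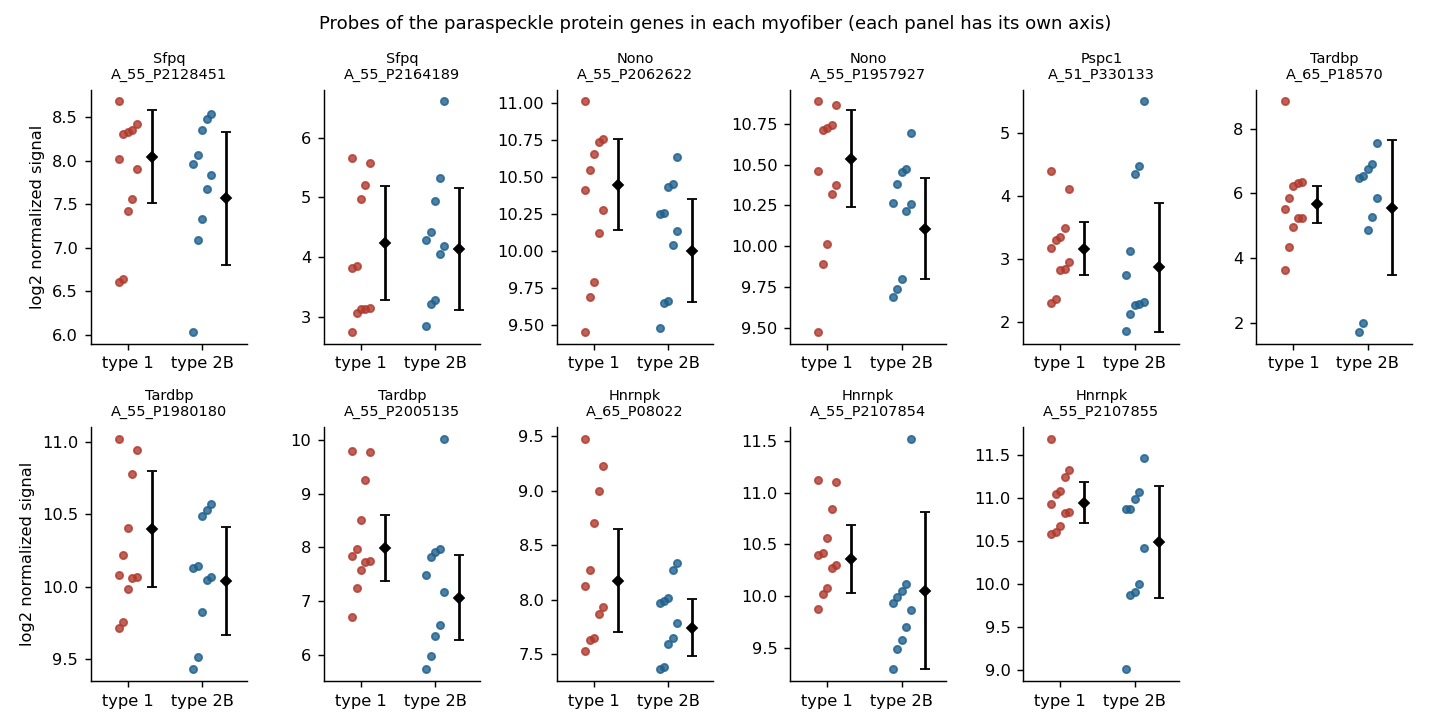
Log2 normalized signal of the 11 probes of Sfpq, Nono, Pspc1, Tardbp and Hnrnpk in each myofiber, type 1 in red and type 2B in blue, with the mean ± SD over 6 mice in black. The types overlap at every probe, and the 3 Hnrnpk panels have differences of -0.54 to -0.48.

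All 33 probes passed the filter on low values, and 29 were well above background in all 21 myofibers. Of the 33, 0 passed the Bonferroni threshold at 0.05 used in the study, where 1.43% of all probes tested did, and 0 passed a Benjamini-Hochberg threshold at 0.05, where 7.57% of all probes did (limma). At an unadjusted p of 0.05 the count was 8 of 33, or 24.2%, against 18.5% of all probes, and 7 of the 8 were higher in type 1 (9.08% of all probes) and 1 in type 2B (9.4%). A negative difference was found in 27 of the 33, with a median of -0.30, where 47.7% of all probes were negative. The mouse means of the types were apart at 0 of the 33, against 4.96% of all probes, and the myofibers at 0, against 1.34%. The unadjusted count of 8 became 0 with slide as a fixed block, 1 with mouse as a fixed block and 13 without mouse 10. In those fits 8780, 5563 and 8408 of the 46928 probes tested had an unadjusted p under 0.05 (limma). The members were chosen with this comparison known and many neighbour one another, so nothing is read from these shares and counts.

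Among other paraspeckle proteins, 5 of 29 genes were higher in type 1 myofibers and 0 higher in type 2B at a Benjamini-Hochberg adjusted p of 0.05 over all probes, and 0 passed Bonferroni. Their 42 probes had a median difference of -0.35, and 14.29% passed, all higher in type 1, against 7.57% of all probes in either direction and 4.09% higher in type 1. All 5 encode RNA-binding proteins. Hnrnpa1, a regulator of splicing, differed by -1.08 ± 0.25 (SE; limma, Benjamini-Hochberg adjusted p = 0.00577) at 1 probe and by -0.77 ± 0.59 (SE; limma, Benjamini-Hochberg adjusted p = 0.552) at its other probe. Cirbp, a cold-inducible RNA-binding protein, differed by -0.99 ± 0.27 (SE; limma, Benjamini-Hochberg adjusted p = 0.0235).

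Hnrnpul1 and Hnrnph3 rested on weaker probes. The former differed by -1.62 ± 0.49 (SE; limma, Benjamini-Hochberg adjusted p = 0.0415) at 1 probe and by -0.05 ± 0.26 (SE) at the other. Hnrnph3 differed by -2.05 ± 0.47 (SE; limma, Benjamini-Hochberg adjusted p = 0.00597), at a probe that exceeded background well in 8 type 1 but only 3 type 2B myofibers. The count of 5 became 0 with mouse as a fixed block, 2 without mouse 4 and 2 without mouse 5, and over all alternatives it ranged from 0 to 6.

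Of the factors that choose the end of Neat1, the cleavage factor subunits Nudt21 and Cpsf6 favour the short end. In this list 0 of 13 genes passed Benjamini-Hochberg (1 with slide as a fixed block, without mouse 2 and without mouse 4) and 2 had an unadjusted p under 0.05, both higher in type 1 (limma). That is 9.52% of its probes, against 18.5% of all probes. Cpsf6 differed by -0.89 ± 0.31 (SE; limma, Benjamini-Hochberg adjusted p = 0.0961) and Nudt21 by -0.21 ± 0.60 (SE; limma, Benjamini-Hochberg adjusted p = 0.912). Of the nuclear speckle proteins, with which Malat1 is found, 0 of 19 genes passed (1 with slide as a fixed block and 1 without mouse 2) and 5 had an unadjusted p under 0.05, all higher in type 1. These made up 18.2% of the list's probes, near the 18.5% of all probes. Of the genes that process the 3′ end of Malat1, including subunits of RNase P, 0 of 11 passed and 0 had an unadjusted p under 0.05, with a median difference of 0.13 over 14 probes.

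Of 5 transcription factors that act on Neat1, Epas1 (HIF-2α), the hypoxia-inducible factor reported to induce it, was higher in type 1. Its probe A_51_P250058 averaged 11.97 ± 0.24 over the 6 mice of type 1 and 11.03 ± 0.41 over those of type 2B (± SD), a difference of -1.13 ± 0.24 (SE; limma, Benjamini-Hochberg adjusted p = 0.00282), with the mouse means of the types apart. A second probe differed by -1.29 ± 0.37 (SE; limma, Benjamini-Hochberg adjusted p = 0.0308) and the remaining one by -0.58 ± 0.26 (SE; limma, Benjamini-Hochberg adjusted p = 0.215). Of Hif1a, Trp53, Hsf1 and Atf2, 0 passed. Among the neighbours of both loci, 0 of the 4 genes tested passed. Of them 3, Frmd8 and Ltbp3 included, had an unadjusted p under 0.05 (limma), all higher in type 2B. That is 80% of the list's 5 probes, against 18.5% of all probes in either direction and 9.4% higher in type 2B. A probe on the other strand of the same Frmd8 bases, not in the list, differed by 0.81 ± 0.48 (SE; limma, unadjusted p = 0.107). Without mouse 7, 1 neighbour passed Benjamini-Hochberg.

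The probes most like the long-isoform region over the 21 myofibers were found among 16104 probes well above background in every myofiber. The highest Pearson correlations were those of Hmmr (0.75), a lincRNA probe on chromosome 17 (0.71), Lpgat1 (0.70), LOC669787 (0.69) and Zbtb20 (0.69). The lowest were those of Dnmbp (-0.84), 2310030N02Rik (-0.82), Vkorc1 (-0.80), Fam110a (-0.79) and Slc26a6 (-0.75). Hmmr kept 0.85 within type 1 and 0.57 within type 2B, and Dnmbp -0.62 and -0.88. They are the extremes of a search over many probes, and the myofibers share mice and slides.

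Markers of other cells moved in part with the long-isoform region, and their part in its difference was not tested. The summed log2 level of 5 connective tissue genes was 8.13 to 12.21 in type 1 (median 9.29) and 7.73 to 9.43 in type 2B (median 8.71). Its Pearson r with the long-isoform region was 0.65, 0.71 within type 1 and 0.25 within type 2B. Col3a1, a fibrillar collagen, was higher in type 1 (difference -2.45 ± 0.48, SE; limma, Benjamini-Hochberg adjusted p = 0.00144), and Pdgfra was well above background in no myofiber. The other connective tissue genes did not pass. Col1a2, well above background in all 21 myofibers, differed by -0.23 ± 0.44 (SE; limma, Benjamini-Hochberg adjusted p = 0.850). The dimmer Col1a1 and Dcn differed by -0.96 ± 0.54 (SE) and -0.21 ± 0.66 (SE). The summed level of 4 satellite cell genes was at 10.64 to 13.05 in type 1 (median 11.81) and 9.34 to 12.17 in type 2B (median 11.06), with r = 0.51. Of them Ncam1, an adhesion molecule that nerve and muscle also express, was higher in type 1 at its 3 probes, with differences of -2.48, -2.50 and -2.08 (limma, Benjamini-Hochberg adjusted p = 4.87e-05, 0.00499 and 0.00651), the first also past Bonferroni (adjusted p = 0.0297). Pax7 differed by -1.37 ± 0.54 (SE; limma, Benjamini-Hochberg adjusted p = 0.148), Myod1 was well above background in all 21 myofibers with a difference of 0.02, and Myf5 in 0. For 5 blood genes the level was 8.50 to 13.08 in type 1 (median 9.30) and 8.64 to 9.61 in type 2B (median 9.20). The r was 0.51, 0.75 within type 1 and -0.60 within type 2B. Of 5 endothelial, 3 Schwann cell and 3 adipocyte genes the r was 0.18, 0.09 and -0.62, and of the 6 myofiber genes it was -0.38.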

How the data were processed

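Single myofibers were profiled on one-colour 60-mer arrays after whole-transcriptome amplification, which does not keep strand. The authors processed the scans with Agilent Feature Extraction 10.7.3.1, and the deposited scanner files hold the processed signal intensity, background-subtracted within each array. The authors' deposited series table holds quantile normalized intensity on a linear scale, and served as an alternative. In it, the columns of E13.3 and E12.5 followed each other's scanner output.

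Here, 3671 control features of 62976 were left out, outlier spots were set to missing, and intensities were quantile normalized, log2 transformed and averaged by probe (R 4.3.3, limma 3.58.1). Of 55681 probes, 46928 were tested with limma, those that Feature Extraction called positive and significant in 50% or more of type 1 or of type 2B arrays, with mouse as a random block (consensus correlation -0.0175), and p-values were adjusted over all of them. Bonferroni at 0.05 is the study's threshold, and Benjamini-Hochberg is given beside it. Region values are means of log2 signals, a mean ± SD is over mouse means, and SE is that of the fit over myofibers. For means per mouse, each probe was averaged by mouse before probes were averaged. The number of arrays limits the precision. Figures were drawn with matplotlib 3.10.9.

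Members and gene lists were chosen with earlier results of these data known. Named were every member and Malat1 probe, genes of the 6 lists past Bonferroni or otherwise Benjamini-Hochberg, and the 5 highest and 5 lowest correlations with the long-isoform region. Some genes that the rule names are counted but not reported here by name. Genes named beyond this rule, such as Nudt21, Cpsf6, Hif1a and the neighbours, were chosen after their values were seen. Alternatives were the 75th percentile scaling, normexp background correction, other filters, no mouse block, mouse or slide as fixed blocks, means per mouse, a replicate block, the methods' t-test, the deposited table, and leaving out mice or myofibers. The script was tested on simulated data. Of 100 probes changed by 1 on the log2 scale, 20 passed Benjamini-Hochberg and 0 Bonferroni. Of 100 changed by 2, these counts were 79 and 42.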

Additional observations from a re-analysis of the deposited data

Results flagged for a closer look

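In 7 of 60 groups of values the highest or lowest value stood apart from the others. The groups were the type 2B myofibers and the mouse means of each type, for the region values and single probes. The type 1 myofibers were not examined as a group. A rate of 1 in 20 would give 3, but the groups share myofibers and probes, so nothing is read from 7 against 3. In the Neat1 common region the type 2B myofiber E10.4 was at 14.199 with the nearest at 12.68, and as the only type 2B myofiber of mouse 4 it set that mouse mean at 14.199 with the nearest at 12.21. The same myofiber was at 11.53 for the Hnrnpk probe A_55_P2107854 with the nearest at 10.12, and the mouse 4 mean was 11.53 with the nearest at 9.99. In the Neat1 start region E12.5 was at 8.41 with the nearest at 10.32. For the Sfpq probe A_55_P2128451 the mean of mouse 7 was 6.04 with the nearest at 7.67. For the Tardbp probe A_55_P2005135 E15.3 was at 10.03 with the nearest at 7.97.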

How the results depend on the processing

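Over the alternatives the difference of the long-isoform region ranged from -1.50 (without mouse 4) to -0.59 (mouse as a fixed block), that of the Malat1 3′ end from 0.61 to 1.00, and that of long-isoform minus common from -1.51 to -0.91, all with their sign kept. The common region ranged from -0.14 to 0.37. Leaving out each myofiber in turn gave -1.32 to -1.02 for the long-isoform region, -0.21 to 0.14 for the common region and 0.69 to 0.99 for the Malat1 3′ end. The dim probes of Pspc1, Sfpq and Tardbp changed sign under some alternatives, as did the brighter Sfpq probe A_55_P2128451 (-0.48 to 0.08, with 18 of 21 alternatives of the same sign).

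Of all probes, 672 passed Bonferroni, against 181 with mouse as a fixed block, 354 with means per mouse, 331 with the replicate block, 99 by the methods' t-test, 290 without mouse 3 and 3551 under Benjamini-Hochberg. Under Benjamini-Hochberg the paraspeckle list had 5 genes and the Neat1 transcription list 1, where Bonferroni had 0. The count of member probes past Benjamini-Hochberg was 0, also with mouse or slide as a fixed block. It was 1 with normexp and 1 with the well-above-background filter (A_30_P01025818), where 3392 of 46928 and 3685 of 36399 probes passed. It was 2 without S6.4 (with A_30_P01029006 added) and 3 without mouse 4 (also Hnrnpk A_55_P2107854). In those fits 3436 and 2903 of 46928 probes passed. The members were chosen with this comparison known, so nothing is read from these counts. The causes were not tested.

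Replicate numbers did not pair the samples, as the correlation of deviations over 10 pairs was -0.16 to 0.20 and above 0.1 in 1. With the replicate block the long-isoform difference was -1.07, the common -0.01 and the Malat1 3′ end 1.00. In the deposited table they were -1.13, -0.03 and 0.87, and the Malat1 body was -0.40 over its 6 probes there, against -0.19 for the same probes in the scanner output.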
